A study of Arabidopsis thaliana with 3 samples.

Results

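The comparison of seedlings of the mutant ppi1 with wild-type seedlings of Arabidopsis thaliana was read from 1 Affymetrix array of ppi1 and 1 array of wild type. Its members were the genes whose signal lay above a floor of 14.9 on both arrays, with the probe set brightest over the 3 arrays standing for each gene. A probe set is a group of short probes on the array that reads one transcript, and its signal is a brightness on a linear scale. Of 3602 genes named on the array, 1853 met this rule. The ppi1 plants carry a T-DNA insertion in the gene for Toc33 and were grown from the Columbia background Col-0 (N1092). Line 75-IV, whose array gives a further value beside the others, has the same background and a label that places its T-DNA in the Toc75 gene At4g09070. The wild type was Col-0 (N1092) with no genetic modification. All 3 samples were whole seedlings at growth stage 1.02 on MS medium with 0.5% sucrose, in 16 hours of light and 8 hours of dark. A temperature, "Normal", is listed for ppi1 only, and the number of seedlings pooled is blank in the labels. Each genotype was 1 line on 1 array, so no test was possible, and every difference given is one between arrays, counted by a rule of size.

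Most proteins of chloroplasts are encoded in the nucleus, made in the cytosol and imported through a translocon in the outer envelope, the TOC complex. Toc33 is a GTP-binding receptor of this complex that is known for recognising precursors of photosynthetic proteins, and Toc75 proteins form its channel. Plants without Toc33 are known to be pale as seedlings, since their chloroplasts develop poorly.

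No probe set was named for TOC33, for its close relative TOC34 or for a gene of the TOC75 family alone, so the insertion could not be checked against the labels. Of 13 genes listed as root markers, 4 had a named probe set, and all 4 lay above the floor on each array. Their summed signal was 1458.8 in ppi1, 935.8 in line 75-IV and 884.9 in wild type, of which AT1G54010 alone made 1341.7, 768.4 and 788.2 in that order of arrays. The lists for leaf, seed, dividing cells, vessels and flowers had no named probe set. In RNA of whole seedlings, fewer cells of a type and less RNA per cell cannot be told apart.

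The ppi1 array stood apart in its scan, with 504 outlier cells of 285156, against 20 on the array of line 75-IV and 11 on the wild-type array. Its background was 61.98, against 56.59 and 50.47 on those arrays. The wild-type array stood apart in the control transcript for glyceraldehyde-3-phosphate dehydrogenase (GAPDH), where the signal at the 3' end was 1.61 times that at the 5' end in ppi1, 2.42 times in line 75-IV and 18.7 times in wild type. For ubiquitin this ratio was 2.75, 3.51 and 4.16 in the same order. Since labelling started from the poly(A) tail, such ratios can reflect how complete the copied transcripts were. In wild type the GAPDH signal was 1408.9 at the 3' end, 1572.0 in the middle and 75.2 at the 5' end. For ubiquitin the 5' signals were close, 1518.7 in ppi1 and 1489.6 in wild type, while the 3' signals were 4180.4 and 6193.0. The part of these ratios in the results below was not tested.

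The median log2 ratio of ppi1 over wild type was 0.11 over the 1853 genes, and 74.4% of them were less than 1.5-fold apart. A signal at least 2-fold higher in ppi1 was found for 79 genes (4.26%) and one at least 2-fold lower for 45 genes (2.43%), together 6.69%. This split depended on scaling. It was 60 higher and 58 lower after quantile normalization, and 49 and 61 after a loess of ratio on level. With the median of these genes set to 0 it was 59 and 65. Scaling the arrays to their 9 spike-in controls gave 367 and 12. Those 9 controls did not move alike, with log2 ratios of ppi1 over wild type from -0.76 (BioB-M) to -0.12 (CreX-3). The spike-in scaling placed the median of all genes at 0.57. Values of gene groups are therefore given relative to the median of all measured genes. Under a factor per array they move only where genes cross the floor, and under the spike-in scaling this placed aspartic proteases at 0.64 in place of 0.98 and turned the auxin genes to -0.03 from 0.10. A single gene's log2 ratio is given as deposited, and each rises by about 0.48 under the spike-in scaling.

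**Figure D1:**
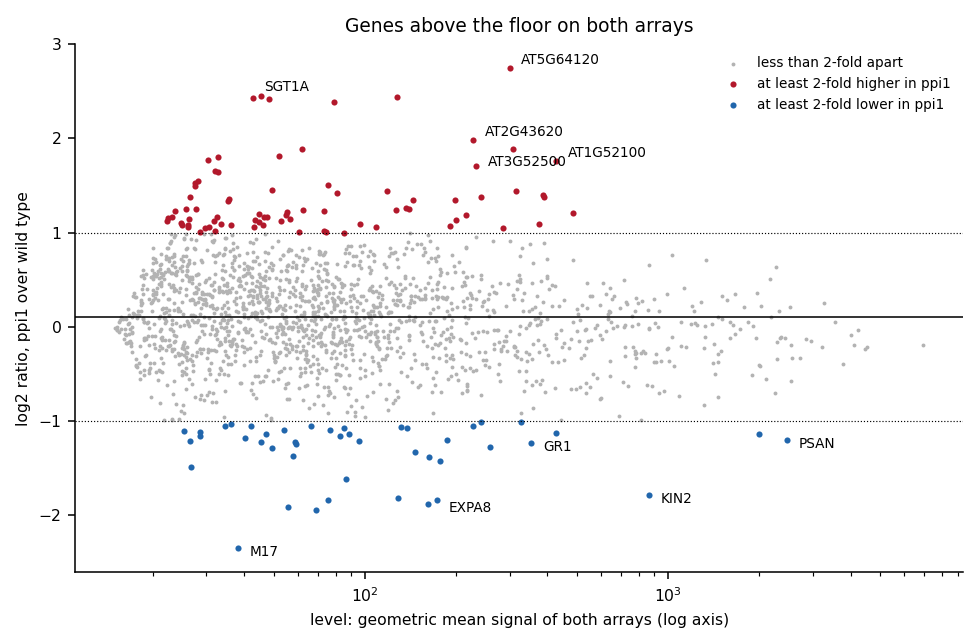
Log2 ratio of ppi1 over wild type (y axis) against the geometric mean signal of both arrays on a log axis (x axis), 1 point for each of the 1853 genes. Red points are the 79 genes at least 2-fold higher in ppi1, blue points the 45 at least 2-fold lower, dotted lines mark 2-fold, and the solid line is the median of all genes, 0.11.

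How well a single ratio can be trusted was read from 83 genes that had more than 1 measured probe set. The log2 ratios of the brightest and the next brightest probe set differed by a median of 0.48, with an SD of the difference of 0.75. That makes an SD of 0.53 per probe set if both err alike, although the next one is the dimmer by choice. The SD of the ratios over all 1853 genes was 0.54. Across these 83 genes, which share the arrays, Pearson's r was 0.36 and Spearman's rho 0.35, and 12 genes had probe sets at least 2-fold apart in their ratios. Among genes at least 2-fold apart between the arrays, 6 had a second measured probe set. It lay on the same side in all 6, but by 2-fold or more in 1 of them, KIN2. The 0.53 rests on these 83 genes with their dimmer probe sets, and the 0.54 on the brightest probe sets of all 1853 genes. These values therefore cannot say how much of the spread over all genes is measurement error.

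**Figure D2:**
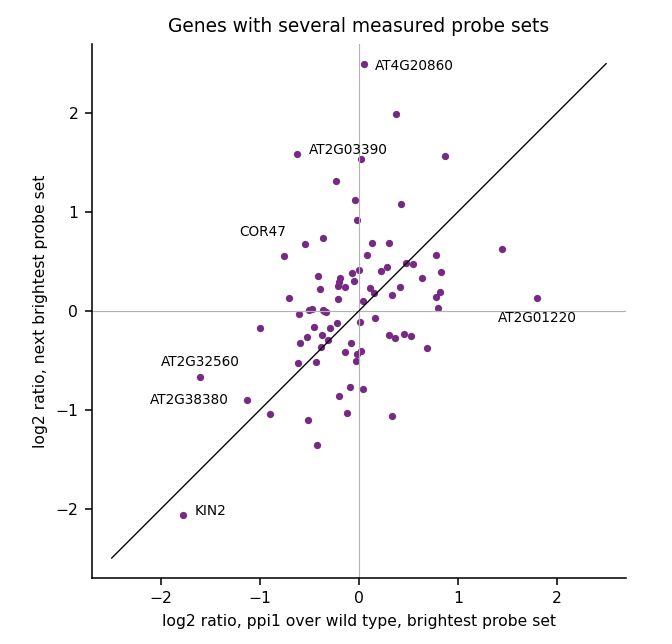
Log2 ratio of ppi1 over wild type in the brightest probe set of a gene (x axis) and in its next brightest (y axis), for the 83 genes with several measured probe sets. The diagonal marks equal ratios. KIN2 lies near the diagonal at the low end, while AT4G20860, with 0.05 and 2.50, lies far from it.

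Genes for secreted and cell wall proteins were found at both ends of the comparison. Class III peroxidases are secreted enzymes that use hydrogen peroxide to stiffen or loosen cell walls and to form lignin. Of 46 named genes of this family, 27 were measured, 3 of them at least 2-fold higher in ppi1 and 5 at least 2-fold lower. Their median was -0.33 relative to all genes, with 8 genes above that reference and 19 below it, and in line 75-IV over wild type the 26 members measured there had a relative median of 0.30. The family held the highest ratio of all, AT5G64120 (peroxidase 71), with signals of 777.7 in ppi1, 439.0 in line 75-IV and 115.8 in wild type, 6.72-fold higher in ppi1. Its probe set carries a suffix in its name, and some kinds of suffix mark possible cross-hybridisation. AT1G71695 had 295.7 in ppi1, 163.6 in line 75-IV and 134.4 in wild type, and AT5G39580 had 410.0, 70.1 and 198.2 on the same arrays. All 3 genes were highest in ppi1, and AT5G39580 was lowest in line 75-IV.

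The 5 peroxidase genes at least 2-fold lower in ppi1 were AT2G38390, AT3G21770, AT2G35380, AT2G38380 and AT2G18150. AT2G38390 had signals of 68.4 in ppi1, 334.9 in line 75-IV and 240.7 in wild type, 3.52-fold lower in ppi1. Its neighbour by locus number, AT2G38380, had 288.7 in ppi1, 738.6 in line 75-IV and 630.7 in wild type. On a second probe set AT2G38380 had a log2 ratio of -0.90, against -1.13 on its brightest. For such close copies, a shared change and cross-hybridisation cannot be told apart. AT3G21770 (log2 ratio -1.42), AT2G35380 (-1.37) and AT2G18150 (-1.06) were likewise lowest on the ppi1 array of the 3.

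Dirigent proteins guide the coupling of lignin and lignan precursors outside the cell. Of 5 named genes 4 were measured, with a relative median of -1.04 in ppi1 and -0.02 in line 75-IV, and none of the 4 had a signal above 91.9 on any array. AT2G39430 had 16.0 in ppi1, 83.2 in line 75-IV and 44.9 in wild type, 2.81-fold lower in ppi1 and the single one past 2-fold. AT4G11190 had a log2 ratio of -0.97 and AT4G11210 of -0.90, whereas AT1G22900 had 0.12.

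Aspartic proteases of the pepsin type, many of them secreted or vacuolar, stood at the other end. Of 16 named genes 7 were measured, with a relative median of 0.98 in ppi1 and 0.41 in line 75-IV, and 4 of the 7 were at least 2-fold higher in ppi1. AT3G52500 had signals of 420.9 in ppi1, 109.5 in line 75-IV and 129.2 in wild type, 3.26-fold higher. The neighbouring loci AT1G03220 and AT1G03230 had log2 ratios of 1.37 and 1.42, with 626.5 and 131.8 in ppi1, 336.7 and 80.3 in line 75-IV, and 241.9 and 49.3 in wild type. AT1G09750 was 2.13-fold higher, with 546.7 in ppi1, 353.0 in line 75-IV and 257.0 in wild type. All 4 were highest in ppi1, and 3 of them were also higher in line 75-IV than in wild type. The vacuolar protease APA1 (-0.22) and AT2G39710 (-0.16) were slightly lower in ppi1. With the floor lowered to the 20th percentile of all signals the relative median of this family was 0.21, as dimmer members entered.

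Pectin enzymes cut or de-esterify the gel between cellulose fibres. The 8 genes listed for this group need not be all such genes on the array. Of them 4 were measured, all above the median of all genes and 3 at least 2-fold higher in ppi1. The relative median was 1.10 in ppi1 and 1.32 in line 75-IV, both against the same wild-type array. ATPMEPCRB, a pectin methylesterase, had 195.7 in ppi1, 57.0 in line 75-IV and 71.9 in wild type. The pectate lyase AT1G04680 had 96.4 in ppi1, 126.5 in line 75-IV and 40.8 in wild type. ATPMEPCRD had 48.8, 56.1 and 21.7 on those arrays. For AT1G04680 and ATPMEPCRD the wild-type array was the low one, while for ATPMEPCRB the ppi1 array was the high one. The probe sets of 2 genes disagreed. ATPMEPCRB had a log2 ratio of 1.44 on its brightest probe set and 0.63 on the one without a suffix, and the pectate lyase AT4G24780 had 0.34 and -1.07.

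Expansins loosen the wall of growing cells without cutting it, and their measured members were spread. EXPA8 was among the lowest genes of the comparison, with 91.6 in ppi1, 479.2 in line 75-IV and 327.9 in wild type, 3.58-fold lower in ppi1. EXPB1 had a log2 ratio of -0.50, EXPA4 0.02, EXPA15 0.33, EXPB2 0.70 and EXLA2 0.95. Over 6 measured genes the relative median was 0.07, and it turned to -0.97 with the floor at the 60th percentile, which left the brighter members. Quantile normalization and loess also placed it at or just under 0. Xyloglucan and glucan enzymes, with 3 measured of 14 named, were all below the median of all genes in ppi1. XTH32 had a log2 ratio of -0.77, EXGT-A3 -0.71 and GH9B13 -0.39. In the group of cellulose synthase-like and wall acetylation genes the relative median was 0.04 over 8 genes, below 0 after quantile normalization or loess on level, with ratios from -0.77 (TBL26) to 0.55 (TBL45). Neither group had a member 2-fold apart.

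**Figure D3:**
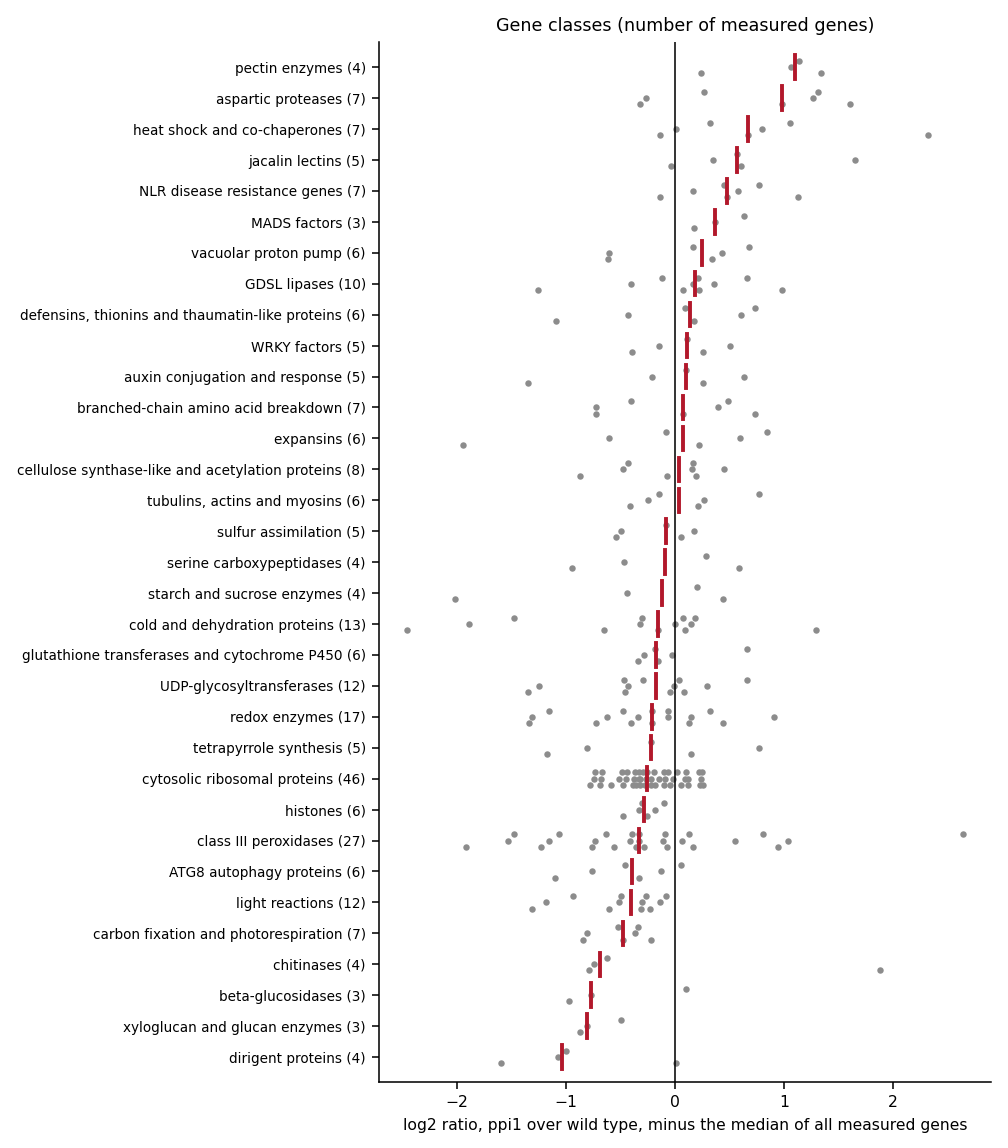
Log2 ratio of ppi1 over wild type minus the median of all measured genes (x axis) for each measured gene of 33 groups (grey points), with the group's median as a red bar and the number of measured genes in brackets. Pectin enzymes (1.10) and aspartic proteases (0.98) have the highest medians, dirigent proteins (-1.04) the lowest, and single members of most groups lie on both sides of 0.

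Genes for photosynthetic proteins, whose precursors use the import machinery that Toc33 serves, were low in ppi1 relative to all genes, by small amounts. All 12 measured genes of the light reactions lay below the median of all genes, with a relative median of -0.41 in ppi1 and -0.12 in line 75-IV. This group was among the brightest on the arrays, and after a loess on level its relative median was -0.12 with 3 of 12 above the reference, after quantile normalization -0.16 with 4 of 12. PSAN, a subunit of photosystem I, had signals of 1628.9 in ppi1, 3193.5 in line 75-IV and 3755.6 in wild type. LHCB4.3, a minor antenna protein of photosystem II, had 58.9 in ppi1, 174.1 in line 75-IV and 124.2 in wild type. These 2 genes were at least 2-fold lower in ppi1, and the third lowest was AT1G51400 with a log2 ratio of -0.83. At the other end PSBW (-0.03), LHB1B2 (-0.12) and LIL3:1 (0.03) had nearly equal signals on both arrays by their brightest probe sets. The second probe set of LHB1B2 gave -1.04 and that of PSBW -0.51.

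The 7 measured genes of carbon fixation and photorespiration were all below the median of all genes, with none 2-fold apart and a relative median of -0.48 in ppi1 and -0.06 in line 75-IV. It was -0.30 after loess on level and -0.26 after quantile normalization, with 1 of 7 above the reference in each. PRK, the phosphoribulokinase that makes the acceptor of carbon dioxide, had 1130.1 in ppi1, 1665.6 in line 75-IV and 1888.4 in wild type. The phosphoglycerate kinase gene AT1G56190 had 420.3, 730.6 and 685.1 on the same arrays. RCA, the activase of Rubisco, was closer, with 4096.9 in ppi1, 4332.0 in line 75-IV and 4813.1 in wild type. HPR, a peroxisomal reductase of photorespiration that is not a chloroplast protein, had a log2 ratio of -0.12.

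Tetrapyrrole synthesis makes chlorophyll and haem, and its 5 measured genes lay on both sides of the median of all genes. PORB, which reduces protochlorophyllide in the light, had 90.8 in ppi1, 166.0 in line 75-IV and 189.9 in wild type, and the geranylgeranyl reductase AT1G74470 had a log2 ratio of -0.70. GSA1, which forms 5-aminolevulinate at the start of the pathway, had 201.0 in ppi1, 155.7 in line 75-IV and 109.5 in wild type. HEMA2, for the step before it, had 0.25 with signals near the floor (30.0 in ppi1 and 25.2 in wild type), and HEME2 had -0.11. The relative median of the 5 genes was -0.22.

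Among 17 measured genes of redox enzymes, 3 were at least 2-fold lower in ppi1 and 1 at least 2-fold higher, with a relative median of -0.21 in ppi1 and 0.01 in line 75-IV. GR1, a glutathione reductase outside plastids, had 230.5 in ppi1, 567.3 in line 75-IV and 543.1 in wild type, 2.36-fold lower in ppi1. GrxC5, a chloroplast glutaredoxin, had 63.1 in ppi1, 103.7 in line 75-IV and 145.6 in wild type. SAPX, the ascorbate peroxidase of the stroma, had 29.2, 86.6 and 60.5 on those arrays. These 3 genes take part in the use or the recycling of glutathione and ascorbate, and each was lowest in ppi1. On the higher side, MSRB9, a methionine sulfoxide reductase, had 40.5 in ppi1, 30.9 in line 75-IV and 20.1 in wild type, and its relative MSRB5 had a log2 ratio of 0.54.

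Cold and dehydration proteins protect cells when water is scarce or frozen, and 13 of 17 named genes were measured. Their relative median was only -0.16 in ppi1 and -0.02 in line 75-IV, but 3 members were at least 2-fold lower in ppi1 and 1 at least 2-fold higher. M17, a late embryogenesis abundant protein and the lowest gene of all, had 16.9 in ppi1, 47.7 in line 75-IV and 86.2 in wild type, with the ppi1 value near the floor. KIN2, a small cold-induced protein, had 464.7 in ppi1, 1666.1 in line 75-IV and 1596.6 in wild type, and its second probe set had 335.2 in ppi1 and 1401.1 in wild type. LTI30, a dehydrin, had 101.1 in ppi1, 360.7 in line 75-IV and 262.4 in wild type. For all 3 the ppi1 array was the low one. Both probe sets of KIN2 carry a suffix in their names, _r and _i. KIN2 has a close copy, KIN1, and whether these probe sets also read it was not tested. COR47, another dehydrin, gave -0.55 on its brightest probe set and 0.68 on the next. SRC2, a C2-domain protein, went the other way, with 629.4 in ppi1, 240.5 in line 75-IV and 238.4 in wild type. Without probe sets that carry a suffix, which left out KIN2, M17 and LTI30, the group had a relative median of 0.09.

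Heat shock proteins and co-chaperones were mostly higher in ppi1, with 6 of 7 measured genes above the median of all genes, 2 at least 2-fold higher and a relative median of 0.67 in ppi1 and 0.22 in line 75-IV. SGT1A, a co-chaperone of HSP90 that acts on disease resistance receptors, had 98.8 in ppi1, 19.7 in line 75-IV and 18.4 in wild type. The small heat shock gene AT2G29500 had 33.5, 18.5 and 15.0 on the same arrays. AT1G53540, another small heat shock gene, had a signal of 49.3 in ppi1 and stayed under the floor on the other arrays, which makes it at least 3.31-fold higher there. Most of these values were near the floor, and with the floor at the 60th percentile the relative median was -0.09.

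Of the intracellular NLR receptors of disease resistance, 7 of 20 named genes were measured, 6 of them above the median of all genes, with a relative median of 0.48 in ppi1 and 0.10 in line 75-IV. AT3G44400 was 2.34-fold higher, with 112.3 in ppi1, 70.1 in line 75-IV and 47.9 in wild type. AT4G19530 had a log2 ratio of 0.88, and AT1G61190 had -0.03. These are long genes, and the relative median was 0.40 with a loess on gene span. Jacalin lectins, which bind sugars, had a relative median of 0.57 over 5 measured genes in ppi1 and 0.49 in line 75-IV. AT1G52100 led them, with 785.7 in ppi1, 341.5 in line 75-IV and 232.6 in wild type, 3.38-fold higher in ppi1, followed by AT1G52070 (0.71), and JAL31 (0.68). AT1G52070 is also on the list of root markers, as is the lowest measured jacalin, AT1G52050 (0.07).

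Chitinases, which cut fungal walls, were split. AT2G43620 had 452.3 in ppi1, 77.5 in line 75-IV and 114.4 in wild type, 3.95-fold higher in ppi1, while the 3 other measured genes, CHI (-0.69), AT2G43610 (-0.64) and AT2G43590 (-0.52, and -1.11 on its second probe set), were lower in ppi1 and lie close to it by locus number. All 3 were higher in line 75-IV than in wild type. Among defensins, thionins and thaumatin-like proteins the ratios ran from -0.98 for the defensin LCR68 to 0.71 for the thionin THI2.2. PR-1-LIKE, listed with them although its name places it in another family, had 0.84. Its signals were near the floor, 26.8 in ppi1 and 15.0 in wild type. No gene of this group was 2-fold apart. Of the beta-glucosidases, BGLU21 had 265.4 in ppi1, 845.1 in line 75-IV and 482.9 in wild type, and BGLU25 had a log2 ratio of -0.66. The 5 measured WRKY factors, regulators of defence, ran from -0.29 (ZAP1) to 0.61 (WRKY47), with a relative median of 0.11, just below 0 with a loess on gene span.

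Among metabolic enzymes the low end was led by ATSPS4F, a sucrose phosphate synthase, with 28.7 in ppi1, 105.1 in line 75-IV and 107.8 in wild type, 3.76-fold lower in ppi1. The other starch and sucrose genes lay between -0.34 (F2KP) and 0.54 (PWD). IAGLU, which joins glucose to the hormone auxin, had 38.6 in ppi1, 144.3 in line 75-IV and 91.3 in wild type. It belongs both to the auxin genes, where the conjugating enzyme GH3.3 had 0.74, and to the UDP-glycosyltransferases, where UGT71C2 (-1.14) was the second gene at least 2-fold lower in ppi1. The 12 measured glycosyltransferases had a relative median of -0.17. The 6 genes listed as glutathione transferases or cytochromes P450 had the same value with no gene 2-fold apart. They need not be all genes of those families on the array.

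Breakdown of branched-chain amino acids, a largely mitochondrial pathway, had a relative median of 0.08 over 7 genes in ppi1. In line 75-IV it was -0.72 over 6 genes, against the same wild-type array. Its members parted in ppi1. MCCA, a subunit of methylcrotonyl-CoA carboxylase, had 182.7 in ppi1, 45.8 in line 75-IV and 102.2 in wild type. AT1G21400, a subunit of the keto acid dehydrogenase, had 52.0, 37.5 and 79.8 on these arrays. MCCA was thus highest in ppi1 and AT1G21400 highest in wild type. The 5 sulfur assimilation genes ran from -0.44 (APS3) to 0.28 (MMT) and had a relative median of -0.08.

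Of 46 measured genes for cytosolic ribosomal proteins none was 2-fold apart, 35 lay below the median of all genes, and the relative median was -0.26 in ppi1 and 0.02 in line 75-IV. It was -0.05 after loess on level and -0.07 after quantile normalization, with 18 of 46 above the reference in each. Their ratios ran from -0.68 (AT2G33370) to 0.36 (AT4G17390). All 6 measured histone genes lay below the median of all genes, with a relative median of -0.28 in ppi1 and -0.22 in line 75-IV, though 1 of 6 lay above it after loess on level or quantile normalization. The 6 ATG8 genes, whose proteins coat autophagosomes, had a relative median of -0.40 in ppi1 and -0.09 in line 75-IV, with 5 of 6 below the median of all genes. The lowest, ATG8F, had 313.2 in ppi1, 674.6 in line 75-IV and 623.2 in wild type. ATG8E, the brightest of them, had 1707.3 in ppi1, 857.6 in line 75-IV and 1732.6 in wild type, nearly equal in ppi1 and wild type.

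The proton pump of the vacuole had a relative median of 0.25 over 6 genes. The membrane subunits of the a type were all higher in ppi1, with log2 ratios of 0.78 for VHA-A2, 0.54 for VHA-A1 and 0.44 for VHA-A3. The genes for the proteolipid ring lay on both sides, with AVA-P2 (-0.51) and AVA-P1 (-0.50) lower and VHA-C3 (0.27) higher in ppi1. VHA-A2 had 162.8 in ppi1, 135.6 in line 75-IV and 94.5 in wild type. Genes of tubulins, actins and myosins had a relative median of 0.03, which quantile normalization and loess turned below 0, with TUB6 highest at 0.88. GDSL lipases were spread from -1.15 (AT2G23540) to 1.08 (AT2G38180), 1 at least 2-fold apart at each end, with a relative median of 0.18 over 10 genes, and the serine carboxypeptidases from -0.84 (SCPL49) to 0.69 (scpl26), whose second probe set gave -0.37. The 3 measured MADS factors lay between 0.28 (AGL34) and 0.74 (AGL93).

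**Figure D4:**
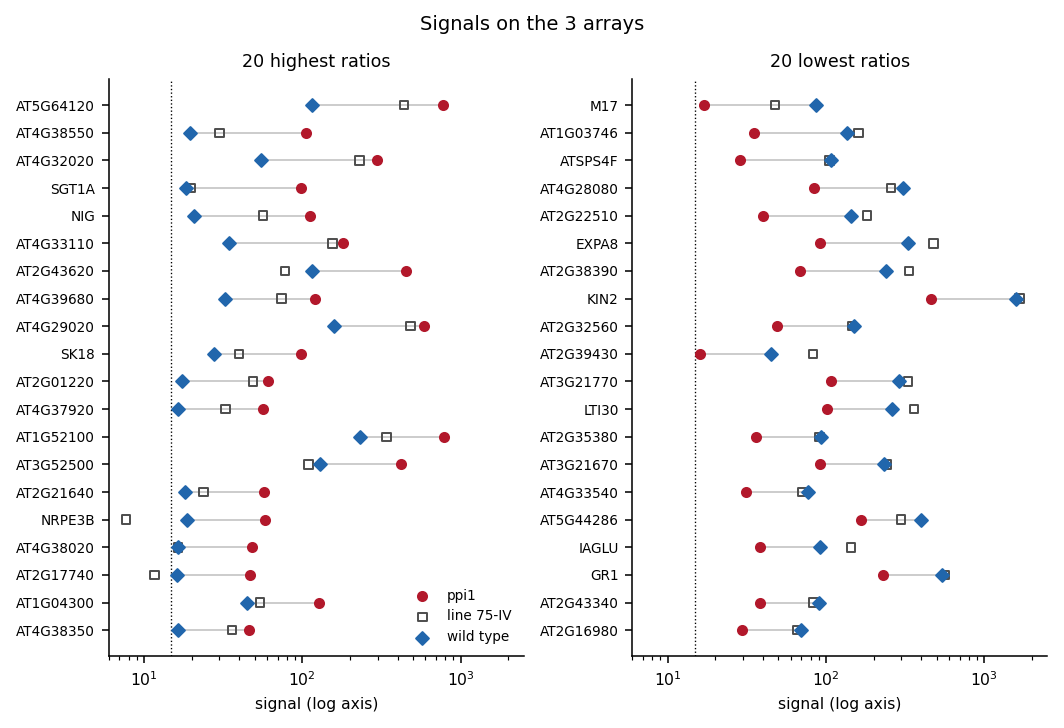
Signals of the 20 genes with the highest (left) and the 20 with the lowest (right) ratio of ppi1 over wild type, on a log axis, with ppi1 as red circles, line 75-IV as open squares and wild type as blue diamonds. The dotted line is the floor of 14.9. Wild-type signals of many genes at the left lie close to the floor, and most of the lowest genes have line 75-IV near or above wild type.

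The 20 highest genes included several outside these groups. AT4G38550 had 106.2 in ppi1, 30.1 in line 75-IV and 19.4 in wild type, and AT4G32020 had 298.3, 229.7 and 54.9 on these arrays. NIG, a GTPase named for its binding to the nuclear shuttle protein of a virus, had 111.3 in ppi1, 56.3 in line 75-IV and 20.8 in wild type. AT4G33110 had 181.5 in ppi1, 155.2 in line 75-IV and 34.7 in wild type. In AT4G32020 and AT4G33110 both mutant arrays stood far above the wild-type array, and line 75-IV was nearer to ppi1 than to wild type. AT4G39680 (log2 ratio 1.89), AT4G29020 (1.88) and AT4G37920 (1.77) were also higher in line 75-IV than in wild type. SK18, a SKP1-like subunit of ubiquitin ligases, had 97.6 in ppi1, 39.7 in line 75-IV and 27.7 in wild type. NRPE3B, a subunit of the plant RNA polymerases of gene silencing, had 58.1 in ppi1, and was at 18.6 in wild type and below the floor in line 75-IV. The remaining ones were AT2G01220 (1.80, but 0.13 on its second probe set), AT2G21640 (1.66), AT4G38020 (1.55), AT2G17740 (1.53), AT1G04300 (1.51) and AT4G38350 (1.49).

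The lowest genes outside the groups began with AT1G03746, which had 35.3 in ppi1, 160.3 in line 75-IV and 135.5 in wild type. AT4G28080 had 84.0 in ppi1, 258.1 in line 75-IV and 309.0 in wild type, and AT2G22510 had 40.0, 181.2 and 143.2. In each of these 3 the ppi1 array was the low one and the other arrays lay close together. AT2G32560 had a log2 ratio of -1.61 on its brightest probe set and -0.67 on the next. AT3G21670 (NPF6.4), of the family of nitrate and peptide transporters, had 92.4 in ppi1, 243.4 in line 75-IV and 232.0 in wild type. AT4G33540 (-1.29), AT5G44286 (-1.27), AT2G43340 (-1.22) and AT2G16980 (-1.22) completed the 20.

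Of the 3602 named genes, 2086 exceeded the floor on the ppi1 array and 1952 on the wild-type array. The median signal of all probe sets was 26.3 in ppi1 and 22.1 in wild type. On the ppi1 array alone 233 genes exceeded the floor, and 99 did so on the wild-type array alone. For these only bounds can be given. The largest bounds in ppi1 were those of AT1G01490 (at least 3.52-fold higher, 52.4 in ppi1), AT4G23460 (at least 3.37-fold, 50.2), AT3G52610 (at least 3.36-fold, 50.0), AT1G53540 and AT5G44290 (at least 3.13-fold, 46.7). On the other side AT1G79520 was at least 3.07-fold lower in ppi1 (45.7 in wild type), AT4G32240 at least 2.60-fold (38.7), AT1G62420 at least 2.36-fold (35.1), AT2G41890 at least 2.21-fold (32.9) and LHW, a regulator of vascular cell number in roots, at least 2.19-fold (32.6). Bounds of 2-fold or more were found for 34 genes that exceeded it on the ppi1 array alone and for 7 that did so on the wild-type array alone.

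The higher and the lower genes past 2-fold differed in properties that are not of their function. Of the 79 higher genes, 35 had a lower signal under 29.8, which is 2 times the floor, against 12 of the 45 lower genes. The share of all measured genes under this value was not counted, so these 2 counts have no background beside them. Among the 464 genes in the dimmest of 4 bins of level, 5.39% were at least 2-fold higher in ppi1 and 1.08% lower. Over all measured genes these shares were 4.26% and 2.43%. Probe sets with a suffix of any kind in their names made 11.4% of the higher genes, 40.0% of the lower genes and 14.1% of all measured genes. The median gene span, introns included, was 2525 bp for the higher genes, 1738 bp for the lower genes and 2260 bp for all measured genes. Over 4 equal bins of span, the median log2 ratio of ppi1 over wild type was 0.00 in the shortest, then 0.06, 0.14 and 0.21 in the longest. Over the same bins the median of line 75-IV over wild type stayed between 0.02 and 0.06. Over 4 equal bins of level it was 0.17 in the dimmest genes of ppi1 over wild type, then 0.18, 0.11 and -0.01 in the brightest. Line 75-IV over the same wild-type array had 0.07, 0.08, 0.05 and -0.03 over these bins of level. Across genes, which are not independent, Spearman's rho of the ppi1 ratio was 0.15 with span (n = 1850) and -0.14 with level (n = 1853). For line 75-IV over the same wild-type array, rho with span was -0.003 (n = 1793). Ratios of ppi1 over wild type thus ran higher in long and in dim genes, beside the unequal GAPDH ends, and the part of these properties in the counts was not tested. With a loess on gene span, 57 genes had signals at least 2-fold higher in ppi1, and 59 had signals at least 2-fold lower. Under this loess the relative median was -0.33 for the light reactions, -0.32 for class III peroxidases, 1.06 for aspartic proteases and 1.06 for pectin enzymes. It moved to -0.28 for starch and sucrose enzymes and -0.25 for cold and dehydration proteins, and WRKY factors, branched-chain amino acid breakdown and tubulins, actins and myosins turned just below 0.

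**Figure D5:**
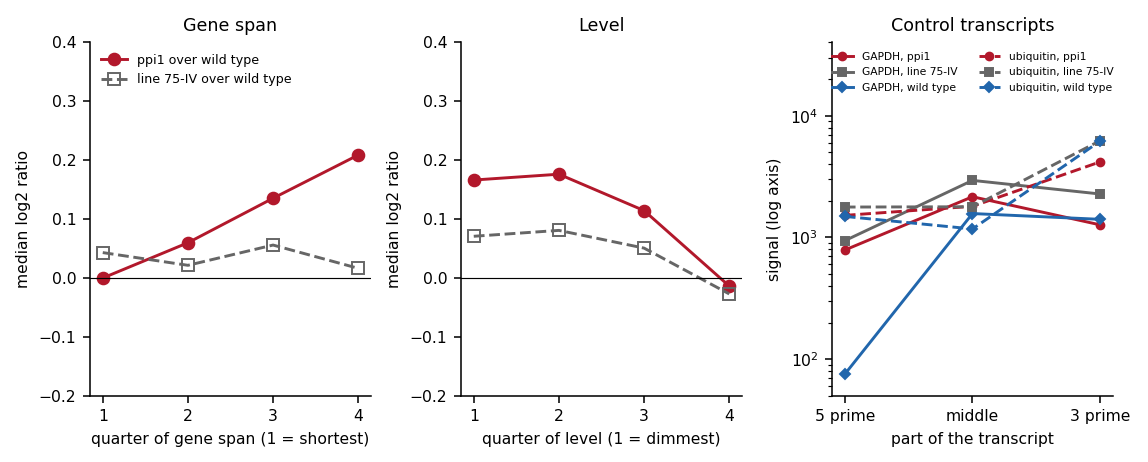
Median log2 ratio over wild type in 4 equal bins of gene span (left) and of level (middle) for ppi1 (filled circles) and line 75-IV (open squares), and signals of the GAPDH and ubiquitin controls along the transcript on a log axis (right). The ppi1 median climbs with span from 0.00 to 0.21 and declines with level to -0.01, and the GAPDH signal at the 5' end is 787.9 in ppi1, 940.5 in line 75-IV and 75.2 in wild type.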

How the data were processed

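Per the labels' protocols, total RNA was reverse transcribed from an oligo-dT primer, transcribed into biotin-labelled cRNA and hybridised to 3 Affymetrix arrays of 8297 probe sets, 1 array per group. The deposited values are intensities of the probe sets, linear and never negative. The software that made them is not given in the sources used here. Their means, trimmed by 2%, were 100.2 on each array, so they were used as deposited, as log2 ratios of ppi1 over wild type, with no pseudocount.

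The 50 control probe sets were left out. The floor was the 40th percentile of all other signals. Platform annotation gave 1 gene for 3794 probe sets, several for 70 and none for 4383. The RefSeq gene table (TAIR10.1) held 3592 of the 3602 genes and was used for names, gene type, span and overlap. Genes were placed in 33 groups by symbol or locus, and a group need not hold all genes of its family on the array. For 183 of the 439 genes in them the table gives only the locus, and their family was taken from general knowledge. The members and the lists were chosen with earlier results of these data known, and the planned matching by gene descriptions was replaced, since the tables hold none. Genes were named by rule, as the 20 highest and 20 lowest, up to 3 at each end of a group, and the 5 largest bounds each way. AT4G20860, AT1G54010, AT2G39710, MSRB5, AT4G11190, AT2G18150, AT2G38380 and other members beyond these were named after their values were seen. Alternatives were other scalings, floors, probe set choices and thresholds. Centring on the measured genes and the loess on gene span were added after seeing the data, with span in place of protein length. Promoter motifs and protein lengths were not analysed here. The procedure was run on simulated arrays with known fold changes. Their noise was set below the SD per probe set found here, so this checked the code and not the precision of the ratios. Python 3.11.15, numpy 2.4.6, pandas 2.3.3 and statsmodels 0.14.6 were used. The number of arrays limits the precision.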

Additional observations from a re-analysis of the deposited data

Results flagged for a closer look

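Probe sets with no single gene in the annotation entered no gene result, although 2614 of the 4453 lay above the floor on both arrays. Among them 108 were at least 2-fold higher in ppi1 and 100 at least 2-fold lower, 7.96% together, and 6 lay above the highest and 4 below the lowest ratio of any named gene. The probe set 20640_s_at had 1325.5 in ppi1, 1161.4 in line 75-IV and 33.4 in wild type, 39.7-fold higher in ppi1, and 14659_s_at had 484.1, 268.0 and 22.1, 21.9-fold higher. On the lower side 16637_s_at had 108.9 in ppi1, 773.7 in line 75-IV and 863.1 in wild type, 7.93-fold lower in ppi1, and 14733_s_at had 95.9, 500.3 and 667.6, 6.96-fold lower. The first pair was high on both mutant arrays, while the other pair was low on the ppi1 array alone.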

How the results depend on the processing

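The counts of 79 genes with higher and 45 genes with lower signals in ppi1 than in wild type, by 2-fold or more, became 49 higher after loess on level, 367 and 12 after spike-in scaling, 222 and 86 with the floor at the 20th percentile (4.2), and 32 and 26 at the 60th (39.9). Probe sets without a suffix gave 28 lower genes, a threshold of 1.5-fold 312 and 162, and one of 3-fold 16 and 9. The remaining counts stayed within 1.5 times, with 91 higher and 39 lower when each array was centred on the median of its own signals above the floor. Most relative group medians differed by less than 0.53, the SD per probe set, which is a wide measure for a median over many genes. The exceptions were aspartic proteases (0.21) and beta-glucosidases (-0.21) with the low floor, and expansins (-0.97) and heat shock proteins (-0.090) with the high floor. Within that measure, loess on level moved the light reactions from -0.41 to -0.12 and the cytosolic ribosomal proteins from -0.26 to -0.05. In 12 of 33 groups the relative median changed sign under some alternative, and in all of these but the heat shock group it was within 0.17 of 0. Of the 20 highest genes, all 20 stayed at least 2-fold higher under each scaling, planned or added, and of the 20 lowest 10 did so under spike-in scaling. No named gene at least 2-fold apart changed its side under any alternative. No paired analysis was possible because each group had 1 array, and none could be left out. Signals near the floor limit the ratios of dim genes. The cause of these shifts was not tested.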

Other observations

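A few named genes are not protein coding in the RefSeq gene table, and 10 of them were measured. Of 6 small nucleolar RNA genes, which guide the modification of ribosomal RNA, AT1G03746 and AT5G44286 were among the 20 lowest genes of ppi1 over wild type. AT5G44286 had 166.2 in ppi1, 299.0 in line 75-IV and 400.8 in wild type. AT3G47342 had a log2 ratio of -0.77 and AT3G24612 of -0.19, whereas AT3G24615 (0.05) and AT2G35744 (0.08) had nearly equal signals. All of these 6 probe sets but that of AT2G35744 carry a suffix in their names, _i or _r. Whether they read other transcripts was not tested. The long non-coding RNA gene AT1G01448 had 42.8 in ppi1 and 18.0 in wild type, and lay below the floor in line 75-IV. AT4G26095, of the same type, had 31.3 in ppi1 and 16.7 in wild type and overlaps 2 protein-coding genes. Overlapping transcripts cannot be told apart on the array.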
